A study of Capsicum annuum with 12 samples.

Results

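H3K27me3 regions that flank H3K4me3 regions are described here in young pepper leaf. Peaks of H3K27me3, trimethylation of lysine 27 of histone H3, that overlapped or touched were merged in each library, and the stretches present in both replicate libraries were kept as shared regions. A flanking region is a shared H3K27me3 region of at least 100 and under 2000 bp in the outer 30% of a chromosome, counted from either end, whose nearest edge lies 1 to 5 kb from a shared H3K4me3 region. These limits were met by 3700 of 29353 shared H3K27me3 regions on the 12 chromosomes, or by 14.7% of the 25149 that met the limits on width and position. The comparison set, called distant regions, has the same limits on width and position but lies over 20 kb from any shared H3K4me3, and it holds 11345 regions. Members were chosen by the peak positions of both marks in these same libraries, so that distance, width limits and position limits are no findings.

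H3K4me3 and H3K27me3 are marks of opposite meaning. H3K4me3 sits near the start of transcribed genes in plants, while H3K27me3 is set by Polycomb repressive complex 2 and covers genes that are kept silent in a tissue, among them many developmental regulators. In plants H3K27me3 usually lies over the body of single genes, so that a silent gene and an active neighbour can carry different marks a few kb apart.

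The study concerned how the pepper genome is folded, and chromatin immunoprecipitation sequencing (ChIP-seq) served to map histone marks. All libraries came from untreated young leaves of one Capsicum annuum cultivar, cv. 59, cross-linked with formaldehyde. The values below come from 2 H3K27me3 and 2 H3K4me3 libraries, with 2 H3K9me2 libraries as a further mark, each precipitated with its own antibody and called against an input. The labels do not say whether replicates came from separate plants, so the spread between them may be technical. The deposited lists held 33316 to 38177 H3K27me3 peaks, 33968 to 34528 H3K4me3 peaks and 15109 to 19218 H3K9me2 peaks. Depth was read from each peak as the number of fragments over its summit, whose median was 20 to 21 for H3K27me3, 73 to 80 for H3K4me3 and 15 for H3K9me2. No gene annotation or sequence of this genome build was used here, so the regions are named by position only, on the build with sequence names that begin with Ca_59Chr, counted from 1.

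Flanking regions were short and of moderate enrichment. Their median width was 415 bp, with an interquartile range of 272 to 693 bp, and their median distance to H3K4me3 was 2719 bp. The authors' fold enrichment, a linear ratio of a peak over its local background, ran from 2.90 over a median of 9.99 to 149.4 in replicate 1 and from 2.60 over 9.12 to 89.04 in replicate 2. The mean of the 2 library medians was 9.56 ± 0.614 (SD, n = 2), and replicate 2 was the lower at 57.7% of the regions. The fold of both replicates lay within 1.5 times of each other at 67% of the regions, and their Spearman correlation over the 3700 regions was 0.678, a description only, since both libraries share the regions' sequence. A median of 26 fragments in replicate 1 and 22 in replicate 2 lay over the summit, down to 8 and 7 at the weakest. A fold under 5 was found at 5.84% of the regions and one of at least 20 at 12.3%. Wider regions were more enriched: the median fold was 7.28 under 300 bp, 8.90 from 300 to under 500 bp, 12 from 500 to under 1000 bp and 16.6 from 1000 bp up.

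The regions just inside the limits resembled those just outside them, except at the limits of width. The median fold was 9.06 at a distance of 1000 to under 1250 bp and 9.84 from 750 to under 1000 bp. At the far limit it was 9.85 between 4500 and 5000 bp and 9.86 between 5000 and 5500 bp. Within 1 to 5 kb of H3K4me3, the 118 regions of 1500 to under 2000 bp had a median fold of 19.1 and the 49 of 2000 to under 2500 bp one of 25.9. The 47 regions of 100 to under 150 bp had 6.12, and 16 of 50 to under 100 bp had 4.83. At 27 to 30% of the chromosome length from the end the median was 9.42 (79 regions) and at 30 to 33% it was 9.11 (66 regions).

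H3K27me3 regions were dense around H3K4me3 and thinned with distance, a description of what the limits selected. Per Mb of sequence at each distance, 25.9 regions began 1 to 1.5 kb from H3K4me3 and 22.2 at 4.5 to 5 kb. The densities were 14.4 under 0.5 kb, 22.3 at 5 to 7.5 kb, 15.9 at 15 to 20 kb and 6.13 at 100 to 500 kb. The value under 0.5 kb leaves out the 2484 regions that overlapped H3K4me3. Over the whole classes there were 23.2 regions per Mb at 1 to 5 kb (159.7 Mb of sequence) and 9.01 beyond 20 kb (1259 Mb). The classes next to the flanking regions were close to them, with 19.4 under 1 kb and 19.2 at 5 to 20 kb. The median fold showed no such decline up to 100 kb. In steps of 0.5 kb from 1 to 5 kb it ranged from 9.12 to 10.5, and from 5 to 100 kb it ranged from 9.80 to 10.2. Farther out it was lower, at 9.37 from 100 to 500 kb (9.61 and 8.95 in replicates 1 and 2) and 8.03 beyond 500 kb (7.79 and 8.15).

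**Figure D1:**
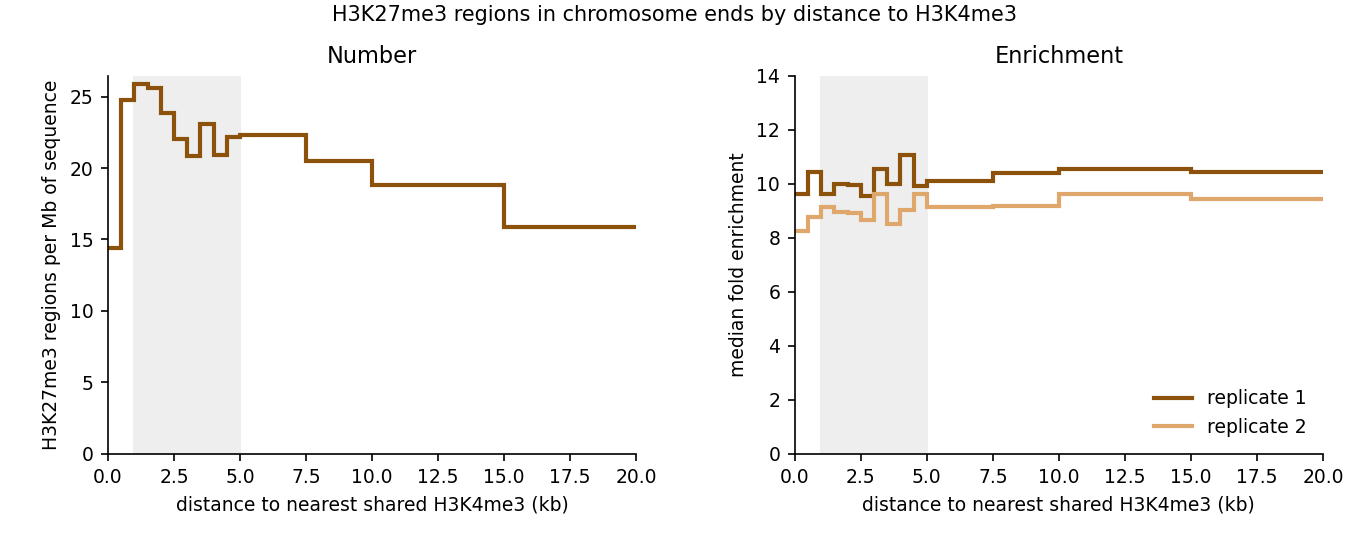
Left, H3K27me3 regions of 100 to under 2000 bp in chromosome ends per Mb of sequence at each distance (kb) to the nearest shared H3K4me3; right, their median fold enrichment in both replicates. Grey marks 1 to 5 kb, where density fell from 25.9 to 22.2 regions per Mb while median fold stayed between 8.49 and 11.05 in the single libraries.

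The test did not separate the enrichment of flanking regions from that of distant ones. The median fold was 9.99 at flanking and 9.99 at distant regions in replicate 1, and 9.12 and 9.14 in replicate 2. Each difference was far below the gap between the replicates. By chromosome, the median fold of flanking regions (mean of both replicates) was on average 9.53 and that of distant regions 9.72, a difference of −0.19 ± 0.691 (SD, 12 chromosomes) that was positive on 5 and negative on 7. An exact two-sided sign-flip permutation test over the 12 chromosomes gave an adjusted p of 0.427, with a 95% interval of the difference from −0.63 to 0.23. The widest gaps were on chromosome 5, with 8.33 against 10.1, and on chromosome 6, with 10.6 against 9.81. Restricted to peaks with a −log10 q of 10 or more, the difference was −0.59, negative on 11 of 12 chromosomes, and passed the test (adjusted exact p = 0.00549). It was positive without replicate 2 of both marks, at 0.274, and without H3K4me3 replicate 2, at 0.0158, and passed in neither case.

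Neither width nor replicate overlap passed the test as planned. The mean over chromosomes of the median width was 413.8 bp for flanking and 425.4 bp for distant regions, a difference of −11.6 ± 26.0 bp (adjusted exact p = 0.287, lower on 8 of 12, 95% interval −28.3 to 4.92 bp). The width difference passed the test with means in place of medians (−17.5 bp, adjusted exact p = 0.0334) and with peaks joined within 1 kb (−53.2 bp, 0.00659) or 3 kb (−94.0 bp, 0.0026). The shared bases made up a median 74.4% of the bases that either replicate's peaks covered at a flanking region, and 73.8% at a distant one (adjusted exact p = 0.396). Within each width band the fold was also close, at 7.28 against 7.26, 8.90 against 9.09, 12 against 12.1 and 16.6 against 17.3 from the narrowest band to the widest. The caller's local background plus 1, relative to the lowest such value in the library, had a median of 1.19 in both classes. By chromosome it differed by 0.0111 ± 0.0314 and was higher at flanking regions on 11 of 12 (adjusted exact p = 0.361). Its part in the comparison was not tested. It was higher at flanking regions, and passed the test, within width bands (0.0336, adjusted exact p = 0.029), with peaks joined within 1 kb (0.0285, adjusted exact p = 0.00942) or 3 kb (0.0367, adjusted exact p = 0.00586) and with the replicate block (0.0351, adjusted exact p = 0.0404).

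**Figure D2:**
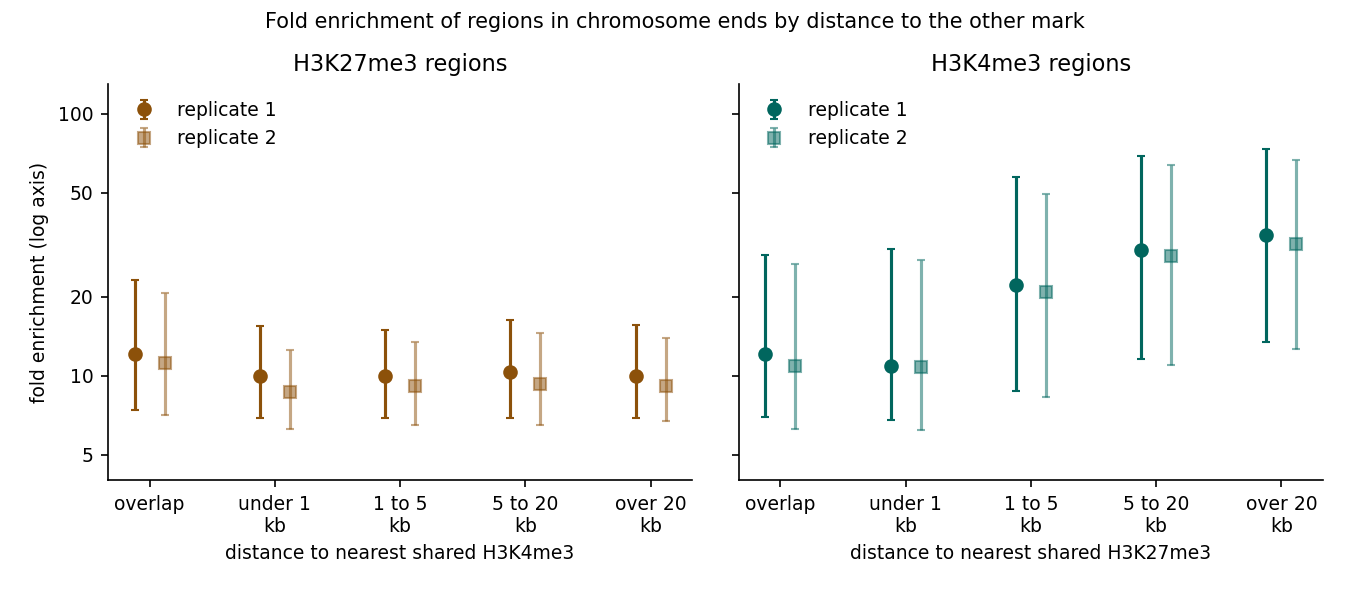
Fold enrichment (log axis) of H3K27me3 regions by distance to H3K4me3 (left) and of H3K4me3 regions by distance to H3K27me3 (right), in chromosome ends. Points are medians of one library and bars the interquartile range; H3K27me3 stays near 9 to 10 beyond the overlap while H3K4me3 rises from 11 to 12 to above 30.

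Both classes were mostly grouped. A neighbour, meaning another shared H3K27me3 region of any width at a gap of at most 3 kb, was found for 79.9% of flanking and 79.7% of distant regions. By chromosome the shares differed by −0.483 ± 3.12 percentage points (flanking higher on 6 of 12, adjusted exact p = 0.595, 95% interval −2.52 to 1.52). Neighbours on both sides were found at 33.4% of flanking and 32.5% of distant regions. This comparison turned with the gap and the libraries. At a gap of at most 1 kb the shares were 55.1% against 61.5%, and the difference by chromosome was −6.68 points and passed the test (adjusted exact p = 0.0022, higher on 1 of 12). Without replicate 1 of both marks it was 2.95 points at 3 kb (adjusted exact p = 0.0313), and with the bases of either replicate 4.23 points (adjusted exact p = 0.000977). With peaks joined within 1 kb it was 8.16 points, higher on 12 of 12 chromosomes (adjusted exact p = 0.0011).

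Counted per region, the median flanking and the median distant region both lay in a group of 3 H3K27me3 regions. The span of the group had a median of 3895 bp over flanking and 3381 bp over distant regions. A large group counts once for each such region in it, so these are not medians over groups. A group of 5 or more contained 30.1% of flanking and 29.1% of distant regions, while 20.1% and 20.3% stood alone. The flanking regions that stood alone, 745 in number, had a median fold of 7.82 and a width of 362 bp, against 10.1 and 428 bp for those in a group. At distant sites these values were 7.98 and 380 bp against 10.3 and 438 bp. Among flanking regions, 17% shared a merged peak of one replicate with another shared region, and 18.9% of distant ones did, so that part of the grouping comes from one merged peak that the other replicate divides. At 46.8% of flanking regions the group also held a region that overlapped H3K4me3.

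Within 5 kb, H3K4me3 lay on only 1 side of nearly all flanking regions, while within 20 kb it lay on both sides of 1385 of 3700 (37.4%). It was within 5 kb on both sides of 225 of 3700, or 6.08% (95% Wilson interval 5.36 to 6.90%, counting error only). Of the sequence 1 to 5 kb from H3K4me3, 7.78% had H3K4me3 within 5 kb on both sides, counted by single bases and therefore without the room that a region takes. Regions between 2 H3K4me3 regions had a median fold of 9.33 in replicate 1 and 8.18 in replicate 2, and those with H3K4me3 on one side 9.99 and 9.14. Their mean library medians were 8.75 ± 0.808 and 9.57 ± 0.599 (SD, n = 2). The ranges of the replicates overlapped, but within each library the regions between 2 H3K4me3 regions were the lower. This difference was not tested. Widths were 430 and 415 bp. The nearest H3K4me3 had the lower coordinate at 49.5% of the regions (95% interval 47.9 to 51.1%).

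H3K27me3 neighbours were somewhat more frequent on the side of the H3K4me3 region. Among the 1601 regions 3 to 5 kb from H3K4me3, where a gap of 3 kb leaves room on both sides, 56.2% had an H3K27me3 neighbour toward the H3K4me3 and 50.8% had one away from it. Their separate 95% intervals were 53.8 to 58.6% and 48.4 to 53.3% and cover counting error only. Both shares come from the same regions, and the regions of a group are not independent. The intervals therefore do not test this difference. H3K4me3 peaks of replicate 1 overlapped 2.73% of flanking regions and those of replicate 2 overlapped 2.65%. All peaks of a library were counted here, also those that replicates share in another part.

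The H3K4me3 regions beside H3K27me3 were weaker and narrower than others. The 2301 H3K4me3 regions of at least 100 bp that were nearest to a flanking region had a median fold of 14.8 in replicate 1 and 13.8 in replicate 2. The 16638 H3K4me3 regions in chromosome ends with no shared H3K27me3 within 20 kb had 34.4 and 31.8. The library medians of the 2 sets did not overlap, with means of 14.3 ± 0.739 and 33.1 ± 1.88 (SD, n = 2). The single regions did overlap widely. Their fold, as the mean of both replicates, had interquartile ranges of 7.29 to 40.2 and of 13.7 to 71.7. By chromosome the medians were on average 15.01 and 33.5, a difference of −18.5 ± 4.52 (12 chromosomes, lower on each, adjusted exact p = 0.00146, 95% interval −21.4 to −15.6). Median widths were 632 and 831 bp, with a difference by chromosome of −195 ± 67.4 bp (lower on 12 of 12, adjusted exact p = 0.00146). The width difference shrank to −88.0 bp without H3K4me3 regions that carried H3K27me3, to −76.1 bp without those with H3K27me3 within 1 kb (chosen after the data were seen), to −121.8 bp with peaks of −log10 q 10 or more and to −75.0 bp with peaks joined within 3 kb, and passed the test each time.

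Many of these H3K4me3 regions carried H3K27me3 themselves. Shared H3K27me3 bases lay on 1047 of the 2317 H3K4me3 regions nearest to a flanking region, or 45.2%. The 1038 of these that measured at least 100 bp had a median fold of 9.79. Those of at least 100 bp without such bases numbered 1263 and had a median fold of 22.7, and a difference from the distant set of −10.96 by chromosome, lower on 12 of 12 (adjusted exact p = 0.00146). Within bands of width and position at once, in an alternative chosen after the data were seen, this difference was −5.27, lower on 10 of 12 (adjusted exact p = 0.00586). So the sign held and the size fell by more than 1.5 times. The median fold of all H3K4me3 regions in chromosome ends rose with their distance to H3K27me3, from 11.7 where the marks overlapped and 11.3 under 1 kb to 21.8 at 1 to 5 kb, 30.4 at 5 to 20 kb and 34.0 beyond. Local background, on the scale given above, had medians of 1.37 and 1.31 in H3K4me3 regions with and without flanking H3K27me3. Its part was not tested.

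Flanking H3K27me3 was of similar strength beside weak and strong H3K4me3. Flanking regions had a median fold of 9.68 beside H3K4me3 regions with a fold under 10, 9.54 beside those of 10 to 30, and 9.63 beside those over 30. Their Spearman correlation over 3700 pairs was −0.0294, a description, since several regions share one H3K4me3 region. Grouping differed more, with a neighbour within 3 kb at 86.1%, 78.0% and 73.1% of regions in the same order. The median distance to H3K4me3 also differed, at 2544, 2674 and 3007.5 bp. Among H3K4me3 regions of at least 100 bp nearest to a flanking region, 51.0% of those carrying H3K27me3 had a fold under 10. Of those not carrying it, 26.9% did. H3K27me3 on the H3K4me3 region can itself be the neighbour, and the part of either was not tested.

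**Figure D3:**
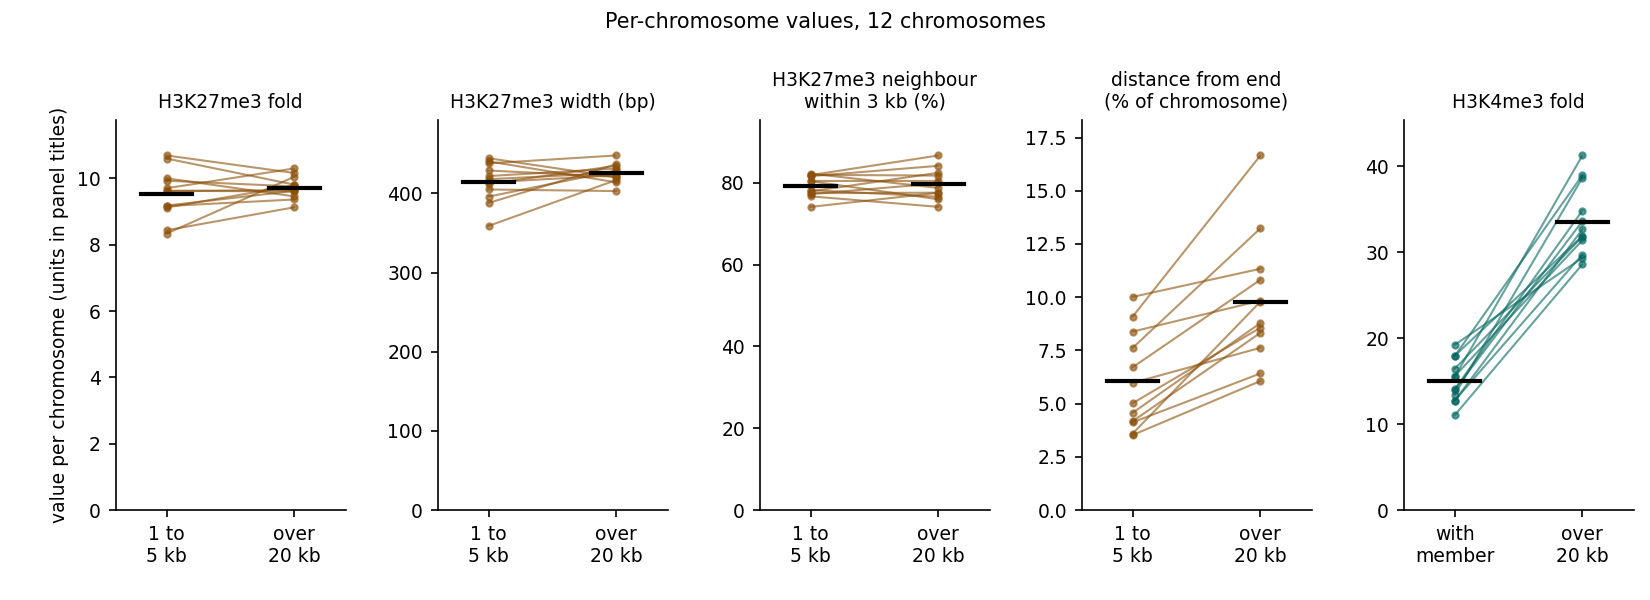
Median or share per chromosome for flanking and distant regions, with lines joining the 2 values of a chromosome and black bars for the mean of 12; the last panel gives H3K4me3 regions nearest to a flanking region and those over 20 kb from H3K27me3. Lines cross for H3K27me3 fold, width and grouping, and rise on all 12 chromosomes for distance from the end and H3K4me3 fold.

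Most of these H3K4me3 regions had a single flanking region. Of the 2317, 1423 had 1, 555 had 2, 231 had 3 and 108 had 4 or more. Flanking regions lay on both sides of 243 of them (10.5%), which is 243 of the 894 with at least 2. H3K4me3 regions with flanking regions on both sides had a median fold of 10.6 and 9.43 in replicates 1 and 2, against 15.5 and 14.5 for those with regions on one side. Only H3K4me3 regions with at least 2 flanking regions can have them on both sides, and fold also fell with their number. Among H3K4me3 regions of at least 100 bp it was 16.2 and 15.3 with 1 flanking region. It was 14.1 and 13.3 with 2, and 11.3 and 10.3 with 3 or more. Side and number were not separated, and neither difference was tested.

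Distance from the chromosome end is given as a description with no test, since position and distance to H3K4me3 both chose the regions. Its median was 6.06% of the chromosome length for flanking and 9.79% for distant regions (mean of 12 chromosomes), a difference of −3.72 ± 2.00 points (SD), and of −1.57 points in the outer 15% at each end. Over all regions of a class the median was 6.17% at 1 to 5 kb, 5.82% at 5 to 20 kb and 8.89% beyond 20 kb, so that the regions at 5 to 20 kb lay nearer still to the end. The difference ran from −1.32 points on chromosome 8 to −7.57 on chromosome 2. The share of flanking regions among those that met the limits on width and position was highest on chromosome 8 (22.2%, 285 regions) and chromosome 2 (19.9%, 397), and lowest on chromosome 12 (9.76%, 211) and chromosome 5 (11.1%, 188).

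H3K9me2, a mark of silent transposons in plants, was found less often around flanking than around distant regions. A peak of either H3K9me2 library lay within 20 kb of 434 of 3700 flanking regions (11.7%) and of 1729 of 11345 distant ones (15.2%), and overlapped 5 and 36. The share was 9.77% for regions 5 to 20 kb from H3K4me3 and 13% for all regions that met the limits on width and position, so that a low share was not particular to flanking regions. The difference by chromosome was −4.21 ± 4.53 points (lower on 9 of 12, adjusted exact p = 0.0286). Within bands of position it was −4.18 points and passed the test (adjusted exact p = 0.00439). It did not pass in the outer 15% at each end (adjusted exact p = 0.0571) or for regions within 3 kb of H3K4me3 (0.0934). With H3K9me2 bases shared by both libraries the shares were low, at 1.61% against 2.94%. The difference was then −1.32 points and did not pass (adjusted exact p = 0.172). Restricted to peaks of every mark with a −log10 q of 10 or more, few regions had H3K9me2 within 20 kb. The shares were 0.916% and 0.851%, which leaves little room for a difference (0.0648 points, adjusted exact p = 0.897).

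The most enriched flanking regions were neighbours on chromosome 1, from 256425877 to 256426448 and from 256426672 to 256427455, at 2326 and 1319 bp from an H3K4me3 region at 256428775 to 256430079. Both had a fold of 149.4 in replicate 1, from the same peak of 325 fragments, and 48.6 and 31.8 in replicate 2. Replicate 1 thus stood well above replicate 2 at this site, and the mean fold of the first was 98.99 ± 71.2 (SD, n = 2). The H3K4me3 region beside them had a fold of 35.8 and 30.9. Next came chromosome 2 from 152351216 to 152352221 (95.6 and 56.5), chromosome 8 from 154390699 to 154391579 (90.7 and 59.9) and chromosome 2 from 149061480 to 149062770 (85.3 and 58.8). The H3K4me3 regions beside these 3 were weak, with a mean fold of 5.77, 9.18 and 12.5. In all 5, replicate 1 was the higher. The 3 most enriched distant regions reached like values, with 103.6 and 95.3 on chromosome 7 from 197771647 to 197773098. A region of chromosome 12 from 251162610 to 251163119 had 118.7 and 72.8, and one of chromosome 3 from 266937256 to 266938336 had 96.0 and 86.4.

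The longest flanking regions differed widely in fold. The longest, on chromosome 8 from 147319040 to 147321038 stood alone, 4832 bp from an H3K4me3 region with a fold of 138 and 114. Its own fold was 9.62 and 9.63, from 20 and 19 fragments. The other two measured 1995 bp, both on chromosome 3, from 22044685 to 22046679 (14.7 and 18.6) and from 285369628 to 285371622 (27.1 and 24.5). The second lay in a group of 5 over 8578 bp, and the H3K4me3 region beside it carried H3K27me3.

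The regions at the edges of the window ranged from below the median fold to well above it. The nearest to H3K4me3, at 1000, 1000 and 1001 bp, lay on chromosome 6 from 30218152 to 30219424 (13.0 and 17.3), chromosome 12 from 217895161 to 217896064 (13.5 and 10.6) and chromosome 3 from 25485652 to 25485850 (6.15 and 6.47). The farthest, at 4998, 4997 and 4997 bp, lay on chromosome 11 from 269533112 to 269533441 (8.99 and 7.60), chromosome 2 from 176221749 to 176222694 (23.8 and 29.2) and chromosome 3 from 286489885 to 286490352 (28.4 and 23.6). That on chromosome 2 belonged to a group of 23 regions over 47823 bp, beside an H3K4me3 region with a fold of 3.67 and 2.66.

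Between 2 H3K4me3 regions, the most enriched lay on chromosome 3 from 16782372 to 16783983, with H3K4me3 at 1832 and 2562 bp, and had a fold of 80.6 and 54.8. The next were neighbours on chromosome 7, from 263517019 to 263517634 (89.9 and 37.2) and from 263516222 to 263516755 (89.9 and 34.4), which shared their replicate 1 value. The nearest H3K4me3 at both sites carried H3K27me3, with a fold of 6.66 and 9.68 on chromosome 3 and of 7.34 and 4.71 on chromosome 7.

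The H3K4me3 regions with the most flanking regions had them on both sides. One on chromosome 2 from 175332312 to 175333092 had 7, with 3 on the lower side and 4 on the higher, at a mean fold of 5.97 to 19.7. Its own fold was 37.0 and 18.4, and it carried H3K27me3. One on chromosome 3 from 268491326 to 268491778 also had 7, at a mean fold of 12.6 to 26.96, in a group of 15 regions over 19524 bp. Here H3K4me3 was weak at 12.6 and 10.8, while the H3K27me3 region that covered it had 44.5 and 104.4. The third, on chromosome 1 from 332987704 to 332988597, had 6 flanking regions of a mean fold of 4.34 to 7.40 and no H3K27me3 on it. It was the strongest of the 3 in H3K4me3, with 37.5 and 53.0.

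**Figure D4:**
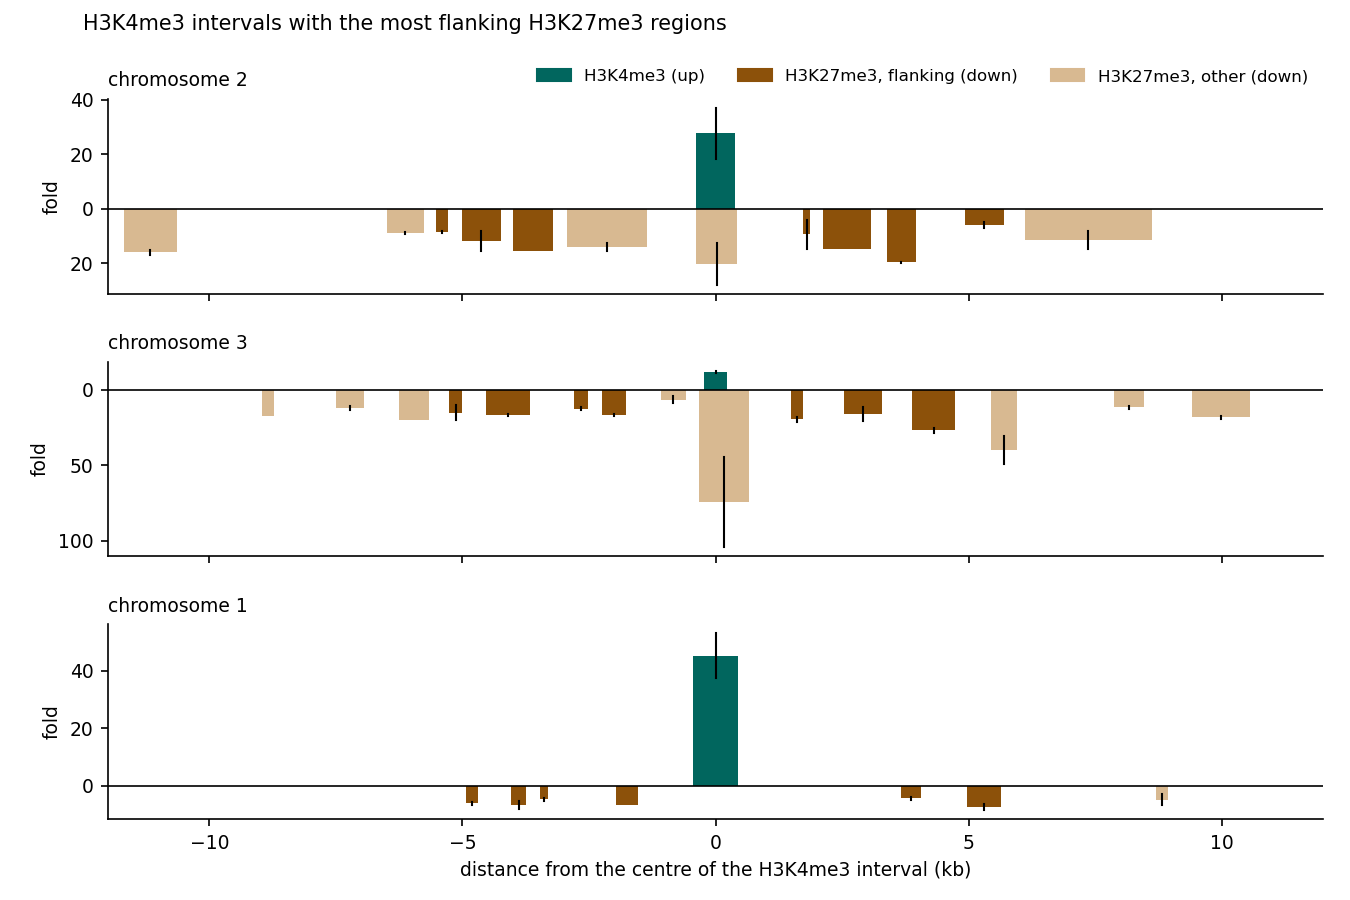
Shared regions around the 3 H3K4me3 regions with the most flanking H3K27me3 regions, by distance (kb) from their centre; bar height is the mean fold of 2 replicates, H3K4me3 upward and H3K27me3 downward, and black lines join the replicates. On chromosomes 2 and 3 H3K27me3 also covers the centre, and on chromosome 1 it does not.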

How the data were processed

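Each of the 6 immunoprecipitated libraries had a deposited peak list, called per library against an input per the file names. The submitters' processing notes name MACS2 2.2.7.1, BWA 0.7.17, deepTools 3.3.0 and Trimmomatic 0.38. Settings and the genome build: not given in the sources used here. The deposited lists give per peak a fold enrichment (ratio), a −log10 p-value, a −log10 q-value and a score, which was not used; inputs were not analysed separately. The lowest −log10 q was 2.01. Fold and p gave the fragments over the summit, within 0.01 of a whole number for 100% of peaks.

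Chromosome length was taken as the furthest peak end in any list. A region's fold is the highest of the peaks that overlap it in a library. Medians or shares per chromosome were compared by exact two-sided sign flips over 12 chromosomes (4096 arrangements, smallest p 0.000488), with Benjamini-Hochberg adjustment over 9 tests and a threshold of 0.05. The p for distance from the end is in that family but is not reported, because the choice of regions used position. A chromosome needed at least 5 regions of each class. Intervals of a difference invert this test. The 12 chromosomes belong to one genome and do not replicate the biology, and 2 libraries alone allow no exact p below 0.5. The regions, tests and alternatives were chosen with earlier results of these data known. Named are the 5 flanking regions of highest fold, the 3 longest, nearest and farthest, the 3 strongest with H3K4me3 on both sides, the 3 H3K4me3 regions with most flanking regions, the 3 strongest distant regions, and the 2 chromosomes with the highest and the lowest share. Python 3.11.15, numpy 2.4.6, scipy 1.17.1, pandas 2.3.3 and matplotlib 3.10.9 were used. The comparison was also run on simulated regions that were independent of each other. They lacked the grouping of the regions here, so that run checks the code only.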

Additional observations from a re-analysis of the deposited data

Results flagged for a closer look

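Sequences outside the 12 chromosomes were not part of the comparisons, and 11 shared H3K27me3 regions there met the same limits on width and on distance to H3K4me3, with a median fold of 6.31. This count is above the limit of 3 that a count of 0 allows, but the sequences carried both marks, so this tests nothing. These sequences held 158 shared H3K27me3 and 53 shared H3K4me3 regions in all, and 102 H3K27me3 regions over 20 kb from H3K4me3.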

How the results depend on the processing

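The H3K4me3 fold and width differences kept their sign and side of the threshold under every alternative run for them (24 and 21). Among these, the setting with distant regions over 50 kb away left the H3K4me3 sets as they were and could change neither difference. The distance from the end, given with no test, kept its sign under 18. Over these alternatives the 3 differences ranged from −21.0 to −5.27, from −245.7 to −75.0 bp and from −5.54 to −1.57 points, the last value in the outer 15%. Leaving out libraries gave ranges of −18.3 to −16.8, −240.5 to −175 bp and −3.80 to −3.36 points. It gave −0.215 to 0.274 for H3K27me3 fold, −12.04 to 0.417 bp for width, −0.805 to 2.95 points for grouping, −6.56 to −4.51 for H3K9me2, 0.00414 to 0.0427 for background, 0.675 to 0.779 for replicate overlap and 4017 to 5228 flanking regions. Fold turned to 0.0432 with bases of either replicate and 0.163 among regions that stood alone. With peaks of −log10 q 10 or more it was −0.588, with 1933 flanking regions and H3K9me2 at 0.0648. Joining within 1 kb gave 1964 regions, width −53.2, grouping 8.16 and background 0.0285, which all then passed the test, and replicate overlap −1.28. Joining within 3 kb gave 871, −94.0 and 0.0367, both differences passing, and no gap for grouping. Bases of either replicate gave 6142 regions and grouping 4.23, which passed. Regions within 3 kb gave 2101, grouping 2.58, replicate overlap −0.171 and H3K9me2 −3.35. Means gave width −17.5 and background −0.00583. Grouping was −6.68 at a gap of 1 kb, 1.07 at 10 kb, 0.949 against regions over 50 kb away and 0.130 without regions that share a peak, where replicate overlap was −0.176. H3K9me2 was −4.48 in the outer 15% and −1.32 in bases shared by its libraries. Background was 0.0336 within width bands and passed. The cause was not tested.

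With the replicate number as a block, the differences were −0.172 for H3K27me3 fold, 0.0351 for background, which then passed the test (adjusted exact p = 0.0404), and −18.5 for H3K4me3 fold, and the other two calls did not change. The numbers are not known to pair the samples. Weak peaks rest on 7 or 8 fragments, which limits fold at the low end.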

Other observations

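The middle 40% of the chromosomes held 306 H3K27me3 regions of the same width 1 to 5 kb from H3K4me3 and 1755 over 20 kb away. Their median fold was 8.84 and 9.33, their median width 399.5 and 414 bp, and 79.7% and 75.9% had a neighbour within 3 kb.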
